A study of Mus musculus with 12 samples.

Results

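Acute hippocampal slices of control mice were compared after a pulse of 4-aminopyridine (4AP) and bicuculline (Bic) and in the basal state. The comparison rests on 6 of the 12 arrays of the series, the 3 titled as control treated with 4AP-Bic, called control S, and the 3 titled as control, called control B. Each of 3 animals gave slices to both treatments, which makes 3 pairs by the replicate number. The mice were 8 to 11 weeks old. The slices were 350 µm thick, 3 to 4 slices of an animal shared a chamber, and they received 2.5 mM 4AP with 50 µM Bic (S) or DMSO as the vehicle (B) for 10 min, with RNA taken 3 h later. Control mice carried, per the labels, the floxed Ptpn11 D61Y allele without the Emx1-IREScre driver, and per the methods the wild-type Ptpn11 alleles with that driver, which acts in forebrain excitatory neurons and astrocytes. The other 6 arrays are Ptpn11D61Y slices under the same 2 treatments and enter through the shared estimate of the spread and through 1 test of the difference of responses. Of 22180 genes with a name of their own on the array, the 15633 with a mean log2 signal of at least 5 over the 6 control arrays were tested, each through its transcript cluster of highest mean signal. A gene near that limit can pass it through its higher group alone.

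4AP blocks voltage-gated potassium channels and prolongs presynaptic depolarization, and bicuculline blocks the GABA-A receptors that carry fast inhibition. Together they drive glutamatergic synapses and open NMDA receptors. The calcium that enters activates kinases, among them ERK of the Ras/MAPK cascade, and these act on the factors CREB and SRF at the promoters of immediate early genes such as Fos, Egr1, Npas4 and Arc. Transcripts of the earliest genes usually decay within hours, while those of later effectors such as Bdnf, Nptx2 and Homer1 follow and act on synapses.

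With arrays centred on their median and slices paired by animal, more genes were higher than lower in control S. The filter of the study, a fold change of at least 1.5 in either direction with an unadjusted p under 0.05, was passed by 1150 genes, 7.36% of those tested, in a limma fit with the animal as a replicate block. Of these, 952 (6.09% of all tested) were higher and 198 (1.27%) were lower in control S. No gene passed an adjusted p of 0.05 (Benjamini-Hochberg, lowest adjusted p = 0.32 in limma), against 2428 genes at an unadjusted p under 0.05. Without animal 2 the filter passed 4462 genes and 84 passed the adjusted p, and without animal 3 it passed 2460 genes and 151 passed. Without the replicate block the filter passed 204 genes, 115 higher and 89 lower. The excess of higher genes depended on the scaling. Arrays as deposited gave 133 higher and 421 lower, and the methods' test, which neither centres arrays nor pairs them, gave 5 higher and 65 lower. That test was run here on the same 15633 genes, a limit on dim genes that the methods do not name. The words rose and fell stand for passing this unadjusted filter. Where RNA of whole slices is measured, fewer cells of a type and less RNA per cell cannot be told apart.

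Both control arrays of animal 1 stood apart from the others. The basal array had a narrower range of signals. Its 95th percentile lay 2.94 above its median on the log2 scale, against 3.50 in the S array of the same animal and 3.65 to 3.89 in the S and B arrays of animals 2 and 3. The S array had the lowest median signal, 36.5, against 44.3 to 52.6 in the other 5 control arrays, and 2188 of its clusters lay under the floor of 1, against 1018 to 1174. Both Ptpn11D61Y arrays of replicate 1 were narrow as well, at 2.86 in S and 2.82 in B. The median S minus B over all tested genes was 0.63 in animal 1, -0.00 in animal 2 and 0.14 in animal 3, and the fitted median was 0.25. In animal 1 it was -0.06 for the 4468 genes with a mean signal of 5 to 6 and 0.85 for the 3491 genes with a mean of 7 to 8. A quantile normalization repeated on these values brought the medians to 0.23, -0.01 and 0.03. The filter then passed 531 genes (3.40%), 293 higher and 238 lower, so that 55.2% of the calls were higher, against 82.8% with arrays centred on their median and 24% with arrays as deposited. Without animal 1 it passed 86 genes (0.550%), 48 higher and 38 lower, and the lowest adjusted p was 0.999. Across genes, which are not independent replicates, the differences of animals 1 and 2, 1 and 3, and 2 and 3 correlated at 0.09, 0.29 and -0.13. The part of these arrays in each result was not tested beyond these settings, and values are given per animal.

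**Figure D1:**
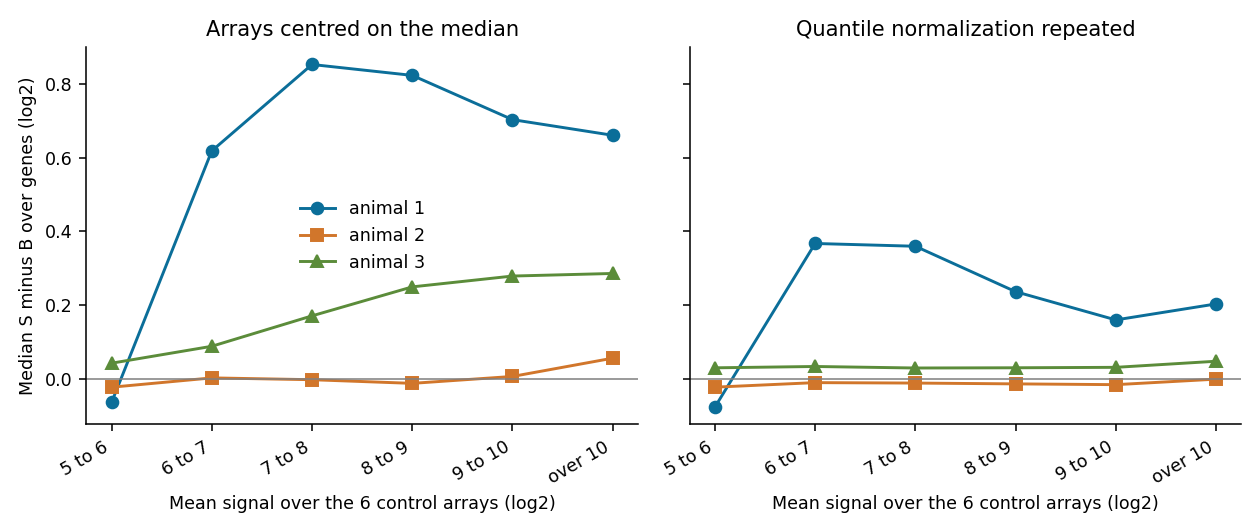
Median of S minus B over genes (log2, y axis) in 6 classes of mean signal over the control arrays (log2, x axis), 1 line per control animal, with arrays centred on their median on the left and after a repeated quantile normalization on the right. Animal 1 reaches 0.85 among genes of mean signal 7 to 8 on the left and 0.36 on the right, while animal 2 stays between -0.02 and 0.06 in both panels.

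The S and B arrays did not overlap for 1930 genes (12.3% of those tested), and 434 genes passed the filter with no overlap and with all 3 pairs in 1 direction, 344 higher and 90 lower. The 14 of each direction with the smallest p, predicted genes left out, are named here. Ddx59, a DEAD-box RNA helicase, had log2 signals of 5.53, 6.19 and 5.95 in S slices of animals 1 to 3, against 4.50, 4.81 and 5.21 in B slices, an S minus B of 1.06 ± 0.23 (standard error, limma, unadjusted p = 7.74e-05, 3 animals). Ints14, a subunit of the Integrator complex that processes small nuclear RNAs, had 6.87, 6.74 and 7.07 in S slices, against 5.17, 6.23 and 6.08 in B slices, an S minus B of 1.07 ± 0.24. Both stood apart in every animal, Ddx59 most in animal 2 and Ints14 most in animal 1. The B mean of Ddx59 was 4.84, under the limit of 5, so its S arrays brought it into the test. Pdcd10, the cerebral cavernous malformation protein CCM3, had 6.58, 6.23 and 6.54 in S slices, against 4.85, 5.92 and 5.62 in B slices. Kcnab3, a beta subunit of Kv channels, the class that 4AP blocks, had 6.21, 6.64 and 6.64 in S slices, against 4.67, 6.18 and 5.88 in B slices, an S minus B of 0.92 ± 0.24. Rgs19, a GTPase-activating protein for G protein alpha subunits, had 6.92, 7.36 and 7.37 in S slices, against 5.51, 6.72 and 6.76 in B slices. For all 3 genes the B array of animal 1 was the lowest, and the S arrays lay above the B arrays in the other 2 animals as well.

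Pbx2, a homeodomain cofactor of Hox proteins, had 6.42, 6.88 and 6.56 in S slices, against 5.34, 5.93 and 6.07 in B slices, an S minus B of 0.84 ± 0.22. Akain1, an inhibitor of A kinase anchoring, had the largest fitted difference of the 14, at 1.44 ± 0.38. That difference rested on the B array of animal 1, which read 3.07, against 6.19 and 6.39 in the B slices and 6.77, 6.71 and 6.50 in the S slices of animals 1 to 3. Without animal 1 the S minus B of Akain1 was 0.31. The other genes of this group were Tmem126a, a mitochondrial complex I assembly factor, Mrpl32 and Mrpl22 of the mitochondrial ribosome, Rpl5 of the cytosolic ribosome, the histone gene H2aw, Ndst4, which modifies heparan sulfate, and AI504432, with an S minus B between 0.95 for Ndst4 and 1.17 for Mrpl32. Without animal 1, 8 of the 14 still passed the filter, namely Ddx59, Ints14, AI504432, Pdcd10, Tmem126a, Kcnab3, Rgs19 and Pbx2.

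Of the 198 genes lower in control S 119 had a mean signal of 5 to 6, against 125 of the 952 higher. Pde6h, the inhibitory subunit of the cone phosphodiesterase, had 5.70, 5.96 and 5.82 in S slices, against 6.58, 6.90 and 6.38 in B slices, an S minus B of -0.79 ± 0.22. Stfa1, a stefin that inhibits cysteine proteases, had 5.09, 4.68 and 5.15 in S slices, against 6.30, 5.77 and 5.62 in B slices, an S minus B of -0.93 ± 0.24. Serpinb6c, of the serine protease inhibitors, had 4.91, 4.63 and 4.87 in S slices, against 5.77, 5.96 and 5.41 in B slices. In these 3 genes every S array lay below every B array, and each pair differed by 0.47 or more. Stfa1 and Serpinb6c had S means of 4.97 and 4.80, under the limit of 5. Both were tested only because their B arrays were higher, so their separation is not independent of that limit. Vmn1r213, a vomeronasal receptor gene, had 6.51, 7.04 and 6.91 in S slices, against 7.40, 7.53 and 7.65 in B slices, an S minus B of -0.70 ± 0.22. Cd40, a receptor of the TNF superfamily on antigen-presenting cells, had 5.38, 6.56 and 6.41 in S slices, against 7.01, 6.95 and 6.79 in B slices. The gap of Cd40 was 1.64 in animal 1 and 0.39 in animals 2 and 3. The others were Vmn1r91, Trim43c, Prl2c1 of the prolactin family, Mir101c, the histone gene H2bc3, the serine protease gene Prss33, Olfr859, Angptl7 and Speer4c, with an S minus B between -0.81 for Angptl7 and -1.86 for Mir101c. Without animal 1, 4 of the 14 still passed the filter, namely Stfa1, Serpinb6c, Pde6h and Vmn1r213.

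**Figure D2:**
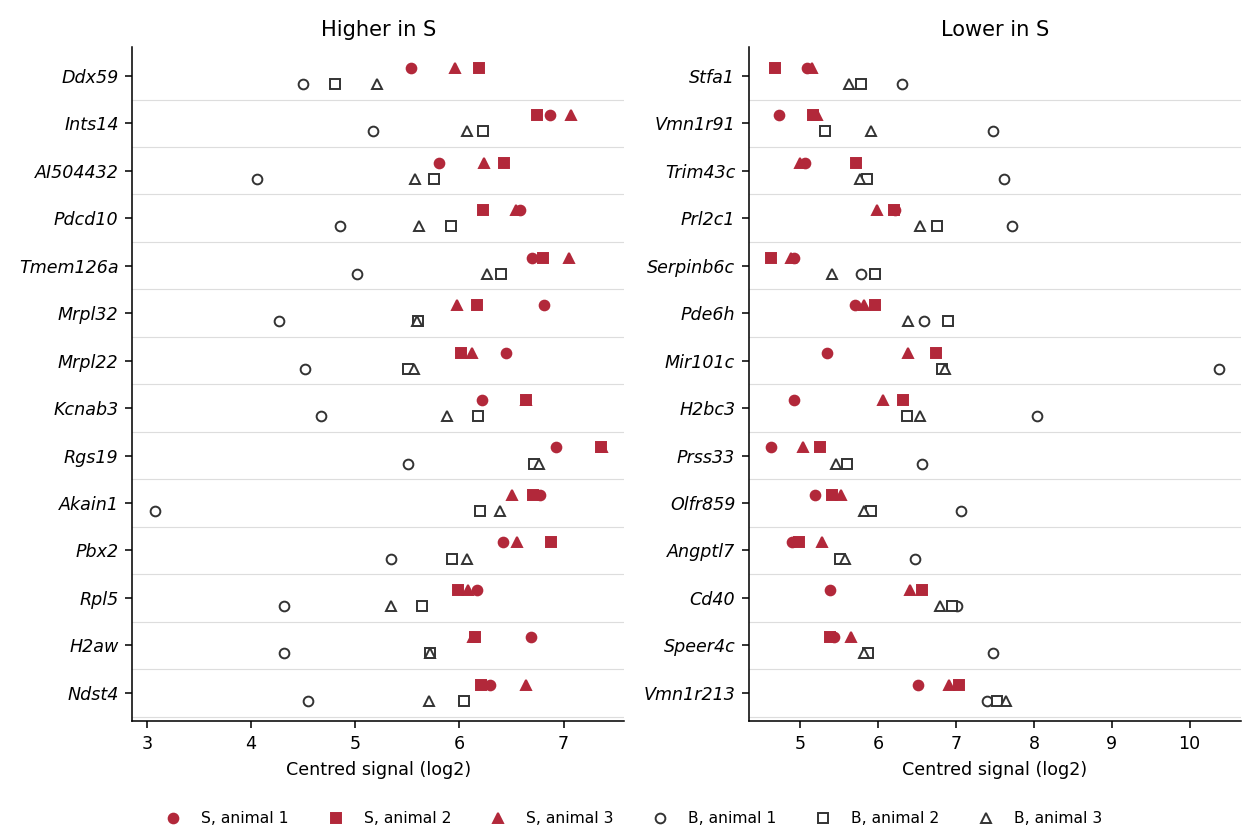
Centred log2 signals (x axis) of the 14 genes higher (left) and the 14 lower (right) in control S with the smallest p among those with separated arrays, 1 gene per line, with S arrays as filled symbols above B arrays as open symbols and the symbol shape giving the animal. For many genes the open circle, the B array of animal 1, lies farthest out, as for Akain1 at 3.07 and Mir101c at 10.37, whereas for Ddx59, Pde6h and Serpinb6c all 3 pairs are apart by 0.53 or more.

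Of the 1150 genes, 407 also passed the filter after the repeated quantile normalization, 51 without animal 1, and 40 under all 3 settings, 21 of them higher and 19 lower. From these 40 a few are named that were chosen after their values were seen. Ddx59, Ints14, Pdcd10, Tmem126a, Kcnab3, Rgs19, Pbx2 and AI504432 were among the higher, and Stfa1, Serpinb6c, Pde6h and Vmn1r213 among the lower. Rit2, a neuronal Ras-like GTPase, had 8.43, 8.86 and 9.10 in S slices, against 6.45, 8.45 and 8.25 in B slices, an S minus B of 1.08 ± 0.26. Cdh12, a cadherin of the nervous system, had 7.30, 7.83 and 7.97 in S slices, against 5.73, 7.41 and 7.09 in B slices. Bmi1, a Polycomb repressor, had 5.46, 5.41 and 5.46 in S slices, against 4.95, 4.80 and 4.73 in B slices, an S minus B of 0.62 ± 0.23. Its 3 pairs differed by 0.51, 0.62 and 0.72, with no lead of animal 1. The B mean of Bmi1 was 4.83, under the limit of 5 for testing, so its S arrays brought it into the test. Arl9, a small GTPase of the ADP-ribosylation factor group, had 7.83, 7.75 and 7.75 in S slices, against 8.46, 8.85 and 8.07 in B slices, an S minus B of -0.68 ± 0.24.

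The early activity transcription factors tended to be higher in control S. Of 29 such genes tested, 7 rose (24.1%, against 6.09% of all genes), none fell, and 28 had an S minus B above 0, against 75.4% of all genes. Their median S minus B was 0.48, against 0.25 over all genes. By animal it was 0.80, 0.12 and 0.27, against 0.63, -0.00 and 0.14 over all genes, so that the median of the list lay above that of all genes in each animal. The list was bright, with a median mean signal of 8.31. The 2135 genes with a mean signal of 8 to 9 had a median of 0.36, and 0.82, -0.01 and 0.25 by animal. The list lay below these in animal 1 and above them in animals 2 and 3. After the repeated quantile normalization the median of the list was 0.22, against 0.08 over all genes, with 27 genes above 0 and 2, Ier2 and Egr2, past the filter. Since the list was put together with earlier results of these arrays known, these counts are a description.

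The genes that rose were Egr2, Ier2, Npas4, Jun, Klf4, Fosb and Klf10. Egr2, a zinc finger factor of the Egr family, had 6.19, 7.67 and 7.59 in S slices, against 4.26, 7.11 and 7.40 in B slices, an S minus B of 0.89 ± 0.27. Ier2, a short-lived nuclear protein of the immediate early response, had 7.38, 6.45 and 6.90 in S slices, against 5.72, 5.97 and 6.53 in B slices, an S minus B of 0.84 ± 0.25. Npas4, a bHLH-PAS factor induced by calcium entry and tied to inhibitory synapses, had 7.68, 8.05 and 7.54 in S slices, against 6.14, 7.69 and 7.20 in B slices, an S minus B of 0.74 ± 0.29. In each of the 3 the S array exceeded the B array of its animal, while the groups overlapped. Fosb, a Fos family member of the AP-1 dimer, had 9.42, 10.55 and 10.66 in S slices, against 8.63, 10.07 and 10.03 in B slices, an S minus B of 0.64 ± 0.25. Its pairs differed by 0.79, 0.49 and 0.63, and without animal 1 its S minus B was 0.56. Jun, the partner of Fos proteins in AP-1, had an S minus B of 0.68 ± 0.26, Klf4 of 0.64 ± 0.25 and Klf10 of 0.61 ± 0.24, and their values without animal 1 were 0.23, 0.20 and 0.31. Jun and Klf10 are named after their values were seen.

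The genes most used as markers of neuronal activity gave smaller differences at this time. Fos had 10.28, 10.91 and 10.89 in S slices, against 9.26, 10.57 and 11.03 in B slices, and its S minus B of 0.40 ± 0.28 did not pass the filter. Egr1, another zinc finger factor, had 9.97, 11.34 and 11.28 in S slices, against 9.19, 10.69 and 11.11 in B slices, an S minus B of 0.53 ± 0.25. Arc, whose protein drives AMPA receptor endocytosis, had 9.67, 10.31 and 10.54 in S slices, against 9.53, 10.66 and 10.03 in B slices, an S minus B of 0.10 ± 0.24. Fos was lower in S than in B in animal 3 and Arc was lower in S in animal 2. Egr3 had an S minus B of 0.56 ± 0.24, Egr4 of 0.55 ± 0.25, Nr4a2 of 0.56 ± 0.24, Nr4a1 of 0.41 ± 0.25, Nr4a3 of 0.37 ± 0.24 and Junb of 0.29 ± 0.23. None of these 6 reached the fold of the filter. Egr4 had pair differences of -0.05, 0.45 and 1.25, so that animal 3 led, and without animal 1 it was the only gene of the list past the filter, at 0.85.

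**Figure D3:**
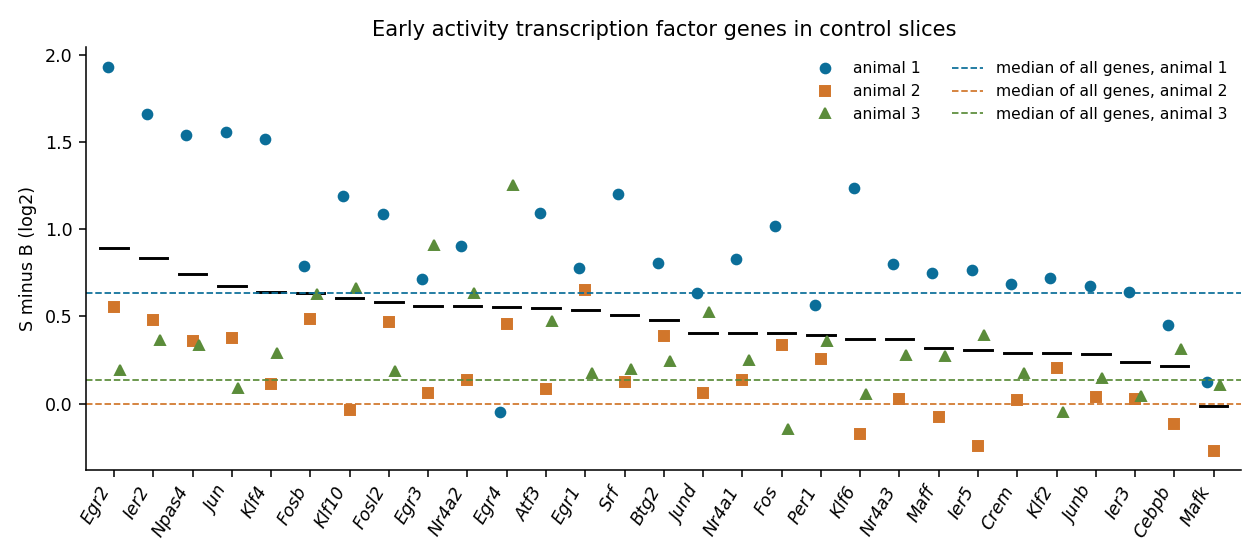
S minus B (log2, y axis) of the 29 early activity transcription factor genes in each control animal (symbols), with the fitted value as a black bar and the median over all tested genes of each animal as a dashed line. Egr2 reaches 1.93 in animal 1, whose dashed line is at 0.63, and 20 of the 29 genes are above 0 in all 3 animals.

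RefSeq start regions were at hand for 5 of the 7 genes that rose, and 3 with matches are shown because calcium and ERK signals reach such genes through CREB at the cAMP response element (CRE) and through SRF at the CArG box. RefSeq windows of GRCm38.p6, 250 bases before to 50 after a gene start, were at hand for 24 of the 29 genes. Capitals mark the CRE core TGACG on either strand and the CArG box, all read 5′ to 3′ on the strand of the gene. The Npas4 window is chr19:4989922-4990221 on the minus strand, the Egr2 window, 1 of 5 for that gene, is chr10:67537680-67537979 on the plus strand, and the Fosb window is chr7:19309996-19310295 on the minus strand.
Npas4: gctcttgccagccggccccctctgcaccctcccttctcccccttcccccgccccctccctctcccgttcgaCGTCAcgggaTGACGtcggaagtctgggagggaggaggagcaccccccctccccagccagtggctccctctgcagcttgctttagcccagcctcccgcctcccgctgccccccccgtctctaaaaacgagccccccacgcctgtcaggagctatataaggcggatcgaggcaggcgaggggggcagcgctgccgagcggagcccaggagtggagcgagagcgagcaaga
Egr2: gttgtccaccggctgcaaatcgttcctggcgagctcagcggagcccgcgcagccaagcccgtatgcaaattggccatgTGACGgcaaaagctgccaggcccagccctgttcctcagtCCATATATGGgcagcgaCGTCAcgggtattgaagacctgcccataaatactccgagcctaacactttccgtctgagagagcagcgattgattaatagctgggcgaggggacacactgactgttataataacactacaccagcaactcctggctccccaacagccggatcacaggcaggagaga
Fosb: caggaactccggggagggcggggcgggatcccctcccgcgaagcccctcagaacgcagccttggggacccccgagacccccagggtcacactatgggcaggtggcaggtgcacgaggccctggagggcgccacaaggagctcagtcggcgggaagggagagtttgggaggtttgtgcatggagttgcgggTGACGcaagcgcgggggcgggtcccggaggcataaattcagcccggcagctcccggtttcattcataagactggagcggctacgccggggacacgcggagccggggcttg

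The Npas4 window holds 2 CRE cores and no CArG box, the Egr2 window 2 CRE cores and 1 CArG box, and the Fosb window 1 CRE core. The Klf4 window holds 1 core, the Jun window neither a core nor a CArG box, and 2 of the 5 Egr2 windows no core. A CRE core was present in a window of 18 of the 24 early activity genes, and a CArG box in 2 of them. Over all 32851 windows, 20.8% hold the core, 1.79% the full palindrome TGACGTCA, which contains the core on both strands, and 1.63% a CArG box. By gene, a core lay in a window of 283 of 757 genes that rose and of 23 of 141 that fell, against 3859 of 12204 tested genes with a window. These are matches of letters, with no measure of binding.

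Late activity effectors behaved close to all genes. Their median mean signal was 8.29, and genes with a mean signal of 8 to 9 had a median of 0.36, above that of this list. Of 28 tested, 2 rose (7.14%, against 6.09% of all genes), none passed after the repeated quantile normalization or without animal 1, and the median was 0.30, against 0.25 over all genes. Rgs4, which limits Gq and Gi signals, had 8.53, 8.73 and 8.67 in S slices, against 7.25, 8.48 and 8.09 in B slices, an S minus B of 0.70 ± 0.24 with separated groups. Gadd45g, a stress-induced growth arrest gene, had an S minus B of 0.63 ± 0.27, and its pair differences were 1.40, 0.52 and -0.04. Bdnf, the neurotrophin of activity-dependent plasticity, had 6.71, 6.18 and 6.24 in S slices, against 5.52, 6.21 and 5.67 in B slices. Its S minus B of 0.58 ± 0.24 lay just under the fold of the filter, and animal 2 showed -0.03. Homer1, the postsynaptic scaffold gene, had an S minus B of 0.25 ± 0.23, Nptx2, which clusters AMPA receptors, of 0.36 ± 0.24, and Ptgs2, the inducible cyclooxygenase, of 0.18 ± 0.26. Syt4, a synaptotagmin, was at 0.55 ± 0.24.

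Among 18 feedback and output genes of ERK signaling 3 rose (16.7%, against 6.09% of all genes) with a median of 0.36, against 0.25. The list had a median mean signal of 7.88, and genes with a mean signal of 7 to 8 had a median of 0.34, close to that of the list. By animal the list was at 0.83, 0.10 and 0.26, against 0.85, -0.00 and 0.17 for those genes. After the repeated quantile normalization 1 of the 18 passed, and without animal 1 none did. Etv5, an ETS factor downstream of ERK, had 7.23, 8.48 and 8.68 in S slices, against 5.26, 8.33 and 8.25 in B slices, an S minus B of 0.85 ± 0.27. Etv1, of the same ETS subfamily, had 8.90, 9.74 and 9.82 in S slices, against 7.44, 8.88 and 9.73 in B slices, an S minus B of 0.80 ± 0.26. Errfi1, an inhibitor of ErbB receptors, was at 0.63 ± 0.24, and Phlda1 at 0.53 ± 0.23. Etv5 differed by 1.96 in animal 1 and by 0.15 and 0.43 in animals 2 and 3, so that most of its mean came from the first pair. None of the 15 tested genes of the Ras, Raf, MEK and ERK chain passed the filter, against 7.36% of all genes, and a list this short cannot be told from that share. Of the 15 genes of SHP2, the phosphatase that Ptpn11 encodes, and its docking partners, only Sos2 passed (6.67%, close to the share of all genes). Sos2, a guanine nucleotide exchange factor for Ras, was at 0.59 ± 0.26.

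Genes of synapses and channels were mostly above 0, as were 75.4% of all genes, and few members passed the filter. Of 16 AMPA receptor genes 3 rose (18.8%, against 6.09% of all genes), and 1 passed after the repeated quantile normalization and 1 without animal 1. The 3 that rose were Cnih3, Shisa9 and Cacng2, all of them auxiliary subunits, while Cacng3 was at 0.51 ± 0.24. Cnih3, a cornichon that slows AMPA receptor closing, had 8.36, 9.24 and 9.30 in S slices, against 6.66, 8.51 and 8.76 in B slices, an S minus B of 0.99 ± 0.26, and passed the filter also without animal 1 at 0.64. Grin3a was the only 1 of 6 NMDA receptor subunits past the filter (16.7%, against 6.09% of all genes), at 0.80 ± 0.27, with -0.21 in animal 3. Of 10 GABA-A receptor subunits, the target family of bicuculline, 2 rose (20%, against 6.09%), Gabrg3 at 0.78 ± 0.25 and Gabrb2 at 0.63 ± 0.25. After the repeated quantile normalization 1 of the 10 passed the filter, and without animal 1 none did. Gabrg3 had 7.17, 8.12 and 8.16 in S slices, against 5.69, 7.45 and 7.98 in B slices. None of the 10 Kv1 and Kv3 subunits, the channels most sensitive to 4AP, passed the filter, against 7.36% of all genes in either direction. A list of 10 is too short to tell this from that share. Kcna2 of that group was at 0.55 ± 0.24. Of 43 other potassium channel genes 6 rose (14%, against 6.09% of all genes) and 1 fell (2.33%, against 1.27%). After the repeated quantile normalization 1 was higher and 2 were lower past the filter, and without animal 1 none was higher and 1 was lower. Kcnh8, a channel of the ether-a-go-go family, had 4.79, 4.68 and 5.50 in S slices, against 5.47, 5.79 and 5.96 in B slices, an S minus B of -0.75 ± 0.24, and was lower in all 3 animals. Its relatives Kcnh5 and Kcnh1 were higher, at 0.79 ± 0.25 and 0.62 ± 0.24.

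Nuclear genes of the mitochondrial ribosome stood out by their count. Of 68 tested, 18 rose (26.5%, against 6.09% of all genes), none fell, and all 68 had an S minus B above 0. Their median was 0.46, and 0.95, 0.10 and 0.27 in animals 1 to 3. For 34 of the 68 the S and B arrays did not overlap, against 12.3% of all genes. Mrpl32 had 6.82, 6.17 and 5.98 in S slices, against 4.27, 5.60 and 5.59 in B slices, an S minus B of 1.17 ± 0.29. Mrpl22 had 6.45, 6.02 and 6.12 in S slices, against 4.52, 5.50 and 5.56 in B slices, an S minus B of 1.00 ± 0.25. In both the B array of animal 1 was the lowest, and the gap in animals 2 and 3 was 0.39 to 0.57. Mrpl45 was at 0.81 ± 0.23 and Mrpl18 at 0.81 ± 0.26. After the repeated quantile normalization 6 of the 68 passed as higher, against 293 of all 15633 genes, with a median of 0.31 and 64 genes above 0. Without animal 1 none passed and the median was 0.20, against 0.07 over all genes.

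Of the respiratory chain genes 7 of 75 rose (9.33%, against 6.09% of all genes), with 1 past the filter after the repeated quantile normalization and none without animal 1. Among them was Ndufs8, an iron-sulfur subunit of complex I, at 0.76 ± 0.24, with 8.60, 8.78 and 8.97 in S slices, against 7.28, 8.48 and 8.30 in B slices. Their median was 0.38, and 49 of the 75 were above 0 in all 3 animals, against 4294 of 15633 genes. Their median mean signal was 8.39, and genes with a mean signal of 8 to 9 had a median of 0.36, close to that of the list. Cytosolic ribosomal protein genes had 2 of 60 higher (3.33%, against 6.09% of all genes), Rpl5 and Rpl27a, and a median of 0.21, under that of all genes. Rpl5 had 6.17, 5.99 and 6.08 in S slices, against 4.32, 5.64 and 5.35 in B slices, an S minus B of 0.98 ± 0.26. The counts of the cytosolic and the mitochondrial ribosome were not tested against each other.

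Stress genes were called in a few members. Hspa1b, an inducible HSP70 gene, had 7.12, 6.21 and 7.60 in S slices, against 5.71, 6.25 and 5.79 in B slices, an S minus B of 1.06 ± 0.27. Hspa1a, its near-identical neighbour, had 7.41, 6.75 and 7.82 in S slices, against 6.73, 6.82 and 5.97 in B slices, an S minus B of 0.82 ± 0.29. Both were higher in animals 1 and 3, by 0.68 to 1.85, while the differences in animal 2 were -0.04 and -0.07, and probes may not tell these 2 genes apart. These 2 were the only ones of 18 heat shock genes past the filter (11.1%, against 6.09% of all genes), and the median of the 18 was 0.41. Their median mean signal was 8.28, and genes with a mean signal of 8 to 9 had a median of 0.36. Of 13 p53 target genes 3 rose (23.1%, against 6.09% of all genes), while 1 passed after the repeated quantile normalization and none without animal 1. The 3 that rose were Ccng1 at 0.81 ± 0.26, Cdkn1a, an inhibitor of cyclin-dependent kinases, at 0.78 ± 0.27, and Fas, a death receptor, at 0.62 ± 0.27. Cdkn1a had 7.90, 8.86 and 9.03 in S slices, against 6.04, 8.78 and 8.64 in B slices, so that the pair of animal 1 carried it. None of the 21 hypoxia and glycolysis genes, the 25 cytokine and chemokine genes, the 18 circadian genes and the 14 metallothionein and antioxidant genes passed the filter. Of all genes 7.36% passed, so that few calls would fall in lists of this length at that share.

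**Figure D4:**
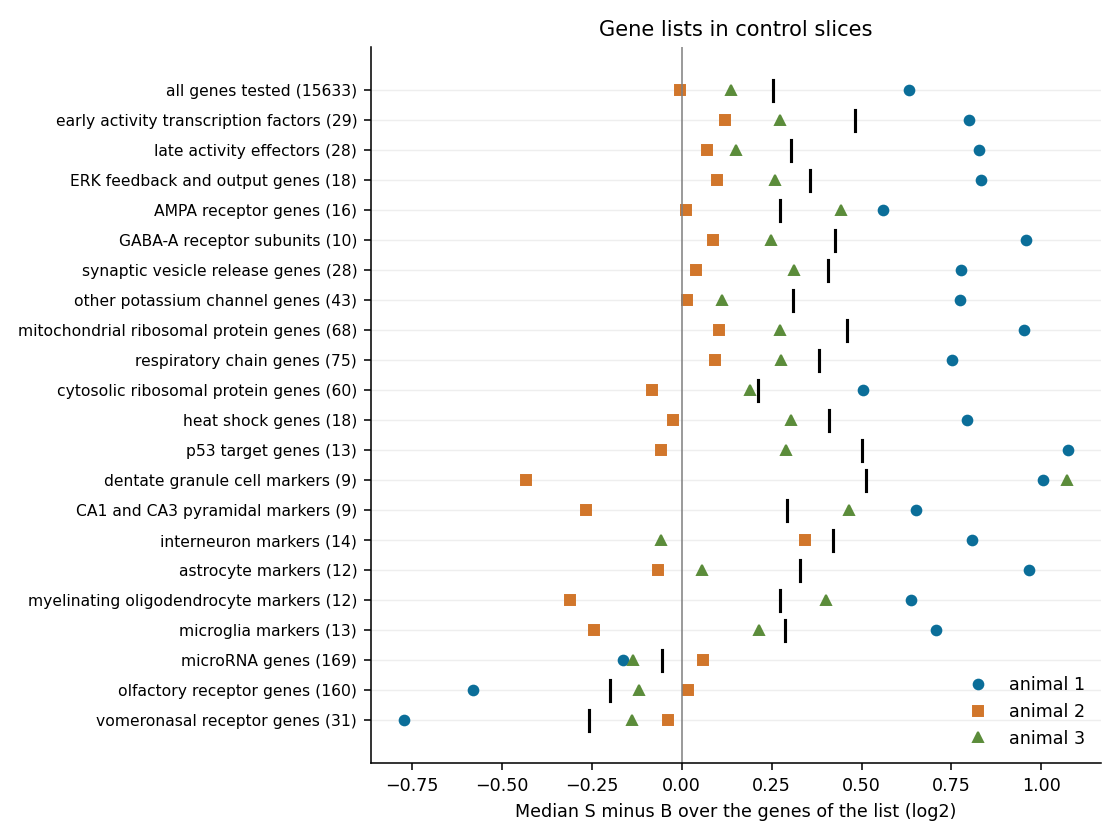
Median S minus B (log2, x axis) over the tested genes of 21 lists and of all genes (top line), with the number of genes in parentheses, symbols for the 3 control animals and a black bar for the fitted median. Most neuronal and metabolic lists follow the spacing of all genes, with animal 1 highest, and the dentate granule cell markers reach 1.07 in animal 3 and -0.43 in animal 2. The olfactory receptor genes lie below 0 in animals 1 and 3, and the vomeronasal receptor genes in all 3 animals, at -0.04 in animal 2.

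Markers of hippocampal cell types were present, and the change of some lists differed from animal to animal. Whether the balance of cell types differed between slices was not tested. The 9 dentate granule cell markers tested had a median S minus B of 1.01 in animal 1, -0.43 in animal 2 and 1.07 in animal 3. This range was wider than over all genes, but a median of 9 genes varies more than a median of all. Of the 9, 3 rose (33.3%, against 6.09% of all genes). Calb1, which encodes the calcium buffer calbindin, had 8.97, 9.08 and 9.73 in S slices, against 7.93, 8.70 and 8.52 in B slices, an S minus B of 0.87 ± 0.25 with separated groups. Prox1, the defining transcription factor of granule cells, had 8.19, 7.96 and 8.85 in S slices, against 7.01, 8.64 and 7.46 in B slices. C1ql2, a synaptic organizer of granule cells, had 8.13, 8.48 and 9.15 in S slices, against 7.32, 8.87 and 7.58 in B slices, and Stxbp6 had an S minus B of 0.50 ± 0.26. Prox1 and C1ql2 were lower in S in animal 2 and higher in S in animals 1 and 3. Calb1, at 0.38, was the only 1 of the 9 markers above 0 in animal 2. The summed signal of the 9 markers was 2137 to 3284 in S slices and 1149 to 2715 in B slices. Their part in other results was not tested.

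The 9 pyramidal markers of CA1 and CA3 had medians of 0.65, -0.27 and 0.47, and 1 of them (11.1%, against 6.09% of all genes), Pou3f1, rose at 0.67 ± 0.24. Interneuron markers had medians of 0.81, 0.34 and -0.06 with 1 of 14 past the filter (7.14%, close to the share of all genes), Gad1, which makes GABA, at 0.60 ± 0.25. Of 12 astrocyte and 12 myelinating oligodendrocyte markers none passed, against 7.36% of all genes, and lists this short cannot be told from that share. Of 13 microglia markers Itgam and C1qb rose (15.4%, against 6.09% of all genes), at 0.64 ± 0.26 and 0.59 ± 0.26. Of 13 endothelial markers Mfsd2a and Slco1a4 rose (15.4%), at 0.73 ± 0.24 and 0.70 ± 0.27. With the repeated quantile normalization none of the markers of these lists passed the filter, and without animal 1 Calb1 and Pou3f1 did, at 0.79 and 0.68, while 1 endothelial marker passed as lower. The summed signals of the microglia markers were 1894 to 2452 in S slices and 1128 to 2423 in B slices. Of 7 choroid plexus, 10 meningeal fibroblast, 6 ependymal and 6 blood leukocyte markers tested none passed, and these lists too are short beside the share of 7.36%.

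Most tested receptor genes of the nose lay below 0. Of 1105 olfactory receptor genes on the array 160 had a mean signal of at least 5, and 17 of these fell (10.6%, against 1.27% of all genes) and none rose. Their median S minus B was -0.20, and -0.58, 0.02 and -0.12 in animals 1 to 3. They were dim, with a median mean signal of 5.56. Of the 4468 genes with a mean signal of 5 to 6, 119 fell and 125 rose. The median of those genes was -0.06, -0.02 and 0.04 in animals 1 to 3. Olfr859 had 5.19, 5.41 and 5.53 in S slices, against 7.06, 5.91 and 5.82 in B slices, an S minus B of -0.89 ± 0.26, and Olfr750 had 4.63, 5.17 and 5.04 in S slices, against 5.97, 5.72 and 5.41 in B slices, an S minus B of -0.75 ± 0.25. Both were lower in S in every animal with separated groups. The S mean of Olfr750 was 4.95, under the limit of 5, so its B arrays brought it into the test. Olfr453 read 10.37 in the B array of animal 1, against 7.57 and 7.88 in the other B arrays, and 6.99, 7.80 and 7.72 in S slices. Its S minus B was -1.10 ± 0.39 with animal 1 and 0.03 without it. Without animal 1 none of the 160 passed as lower, 1 passed as higher, and the median was -0.07, against 0.07 over all genes. After the repeated quantile normalization 11 passed as lower, against 238 of all 15633 genes.

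Of 31 vomeronasal receptor genes 5 fell (16.1%, against 1.27% of all genes) and 1 rose (3.23%, against 6.09%), Vmn2r113 at 0.80 ± 0.26. The 31 genes were dim as well, with a median mean signal of 5.72. Without animal 1, 1 was lower and none higher past the filter, against 38 and 48 of all 15633 genes. After the repeated quantile normalization 6 were lower and 1 higher, against 238 and 293 of all genes. Vmn2r58 had 7.54, 7.29 and 7.51 in S slices, against 8.67, 7.85 and 7.92 in B slices, an S minus B of -0.70 ± 0.23. Vmn1r91 had 4.72, 5.16 and 5.22 in S slices, against 7.48, 5.31 and 5.91 in B slices. Near copies within these families can share probes, so that the values of single receptors are uncertain. Of 10 photoreceptor and eye genes 2 fell (20%, against 1.27% of all genes), Pde6h and Six3, a homeodomain factor of eye and forebrain, and 1 of them passed without animal 1. The median mean signal of the 10 was 5.96. Six3 had 5.93, 5.91 and 6.13 in S slices, against 6.82, 6.65 and 6.49 in B slices, an S minus B of -0.66 ± 0.23. Fgfr4, an FGF receptor, fell at -0.64 ± 0.23, the only 1 of 7 genes of its list (14.3%, against 1.27% of all genes). Ltb4r1, the leukotriene B4 receptor, fell at -0.67 ± 0.23, the only 1 of 10 (10%). Both had separated groups and lower values in S in all 3 animals. Without animal 1 they were at -0.42 and -0.51, and neither passed the filter.

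Genes of microRNAs were measured through their transcripts on the array, which does not separate precursor and mature forms. Of 169 tested, 10 fell (5.92%, against 1.27% of all genes) and 2 rose (1.18%, against 6.09%), and the median was -0.05, against 0.25 over all genes. These genes were dim, with a median mean signal of 5.98. Of the 4468 genes with a mean signal of 5 to 6, 119 fell and the median was -0.02. Without animal 1 only Mir669g passed, as lower, against 38 lower and 48 higher of all 15633 genes. After the repeated quantile normalization 19 passed as lower and 1 as higher, against 238 lower and 293 higher of all genes. Mature sequences of 11 of the 12 are in RefSeq on GRCm38.p6. Those of the genes with separated groups are shown, with the seed, bases 2 to 8, in capitals.
miR-101c: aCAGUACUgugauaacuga
miR-574-5p: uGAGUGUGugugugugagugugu
miR-574-3p: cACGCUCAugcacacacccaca
miR-9-5p: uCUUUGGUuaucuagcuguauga
miR-9-3p: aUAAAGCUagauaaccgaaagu
miR-5100: uCGAAUCCcagcggugccucu
miR-680: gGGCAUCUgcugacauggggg

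No seed is shared among these 7 mature forms. Mir101c, on chromosome 9, had 5.35, 6.74 and 6.38 in S slices, against 10.37, 6.82 and 6.86 in B slices, an S minus B of -1.86 ± 0.52. Without animal 1 its S minus B was -0.28. Mir574, on chromosome 5, had 6.84, 6.88 and 7.43 in S slices, against 7.84, 7.70 and 7.56 in B slices, an S minus B of -0.65 ± 0.23, and -0.47 without animal 1. Mir9-3, on chromosome 7, 1 of the genes of the neural miR-9, had 4.53, 5.03 and 5.28 in S slices, against 6.17, 5.52 and 5.36 in B slices, an S minus B of -0.74 ± 0.27. Without animal 1 the S minus B of Mir9-3 was -0.29. All 3 genes were lower in S in every animal, Mir101c and Mir9-3 mostly in animal 1, where the pairs differed by -5.03 and -1.64. Mir5100, on chromosome 11, had 4.83, 4.93 and 5.10 in S slices, against 6.04, 5.33 and 5.45 in B slices, and Mir680-2, on chromosome X, had 8.11, 8.19 and 7.76 in S slices, against 9.45, 8.30 and 8.26 in B slices. The S means of Mir9-3 and Mir5100 were both 4.95, under the limit of 5 for testing, so their B arrays brought them into the test. Mir669g, of a large repeated cluster, had 6.48, 6.62 and 5.78 in S slices, against 6.81, 6.85 and 7.00 in B slices, an S minus B of -0.59 ± 0.24.

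Mir713, Mir761, Mir693 and Mir3091 fell with overlapping groups, at -1.12, -0.86, -0.70 and -1.05, and Mir149 and Mir3080 rose at 0.68 and 0.62. Mir3091 read 2.11 in the S array of animal 1, against 5.98 and 6.42 in the other S arrays and 5.85, 6.20 and 5.60 in B slices, and was at 0.30 without that animal. Mir149 was higher in S in all 3 animals, with pair differences of 1.28, 0.27 and 0.49.

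**Figure D5:**
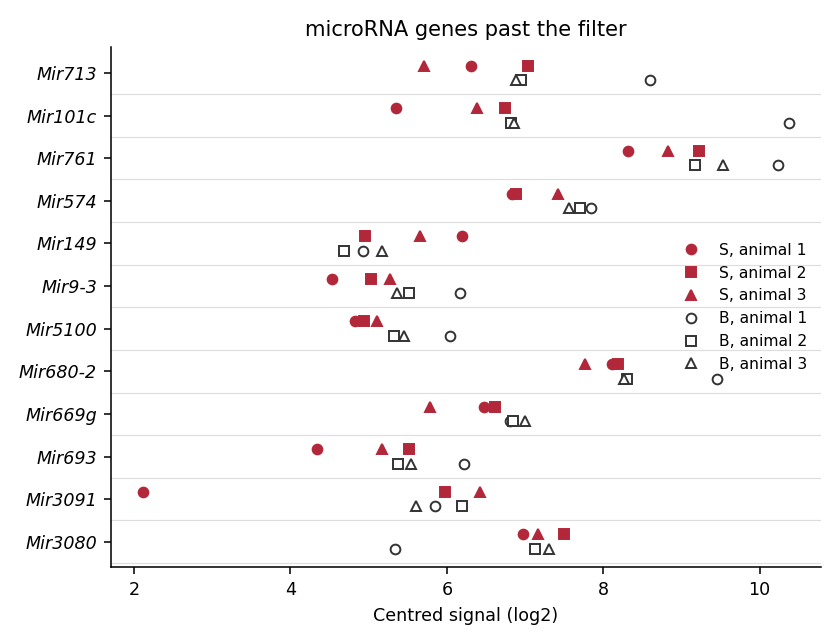
Centred log2 signals (x axis) of the 12 microRNA genes past the filter, 1 gene per line, with S arrays as filled symbols above B arrays as open symbols and the symbol shape giving the animal. The B array of animal 1 lies farthest right for Mir101c at 10.37, Mir713 at 8.60 and Mir761 at 10.24, and for Mir669g the 3 B arrays lie together between 6.81 and 7.00.

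The response of control slices was set against that of Ptpn11D61Y slices under the same treatments. The difference of the responses, Ptpn11D61Y minus control, passed the filter for 243 genes (1.55% of those tested), and none at an adjusted p of 0.05 in limma (lowest adjusted p = 0.235, 243 genes at an unadjusted p under 0.05). Of the 1150 genes past the filter in control slices 113 (9.83%) also passed in the difference, a count that shares the control arrays with their selection. Of the 7 early activity genes that rose in control slices none passed in the difference. For Fosb the S minus B was 0.57 ± 0.25 in Ptpn11D61Y slices and 0.64 ± 0.25 in control slices, a difference of -0.07 ± 0.35. For Npas4 it was 0.17 ± 0.29 in Ptpn11D61Y slices and 0.74 ± 0.29 in control slices, a difference of -0.57 ± 0.41. For Klf10 it was 0.00 ± 0.24 in Ptpn11D61Y slices and 0.61 ± 0.24 in control slices, a difference of -0.60 ± 0.34. For Npas4 and Klf10 both no difference and a difference as large as the control response lay within 2 standard errors.

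Of the genes that the study followed by PCR in this comparison, all 6 had a mean signal under 5 and were not among those tested. In the fit without the filter on the mean, Gabrr1, a rho subunit of GABA receptors, had 3.85, 3.96 and 3.22 in S slices, against 5.42, 4.66 and 4.86 in B slices, an S minus B of -1.30 ± 0.29. Klb, the FGF co-receptor beta-Klotho, had 2.33, 1.91 and 2.89 in S slices, against 3.90, 3.29 and 3.54 in B slices, an S minus B of -1.20 ± 0.43. Efna4, a ligand of Eph receptors, had 3.91, 4.14 and 4.50 in S slices, against 4.71, 5.27 and 4.65 in B slices. The 3 genes were lower in S in every animal without overlap, which is no independent evidence, since the study chose them on these arrays. Mir350 had an S minus B of -0.87 ± 0.34, Mir206 of -1.33 ± 0.84 and Mir376c of 1.40 ± 0.80, at signals under 5 in all 6 arrays. Mocos and Ighm, which the study places in pathways for this comparison, were tested and did not pass, with Ighm, the immunoglobulin mu chain, at -0.12 ± 0.23. Mocos, a molybdenum cofactor sulfurase, had 5.23, 5.15 and 5.22 in S slices, against 5.74, 5.59 and 5.78 in B slices, an S minus B of -0.50 ± 0.23 with separated groups. Chdh, Mpo and Cyp4f18, taken here for the CYP4F2 of those pathways, had mean signals under 5. In the fit without the filter on the mean they were at -0.56 ± 0.24, -0.33 ± 0.30 and -0.96 ± 0.26. Each was lower in S in every animal without overlap, and the study chose them on these arrays as well.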

How the data were processed

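RNA of 12 slice samples was hybridised by the authors to Affymetrix Mouse Gene 2.0 ST arrays, with background correction, quantile normalization and PLIER summaries, and the deposited values are intensity per transcript cluster on a linear scale, checked on the values. Values under 1 were set to 1, log2 was taken and each array was centred on its median. Of 41345 clusters, 23521 have 1 gene symbol, 1820 several and 16004 none, and only those with 1 symbol were named. limma 3.58.1 in R 4.3.3 was fitted to all 12 arrays with the animal as a block and a variance trend, on genes with a mean log2 signal of at least 5. The call was the filter of the study, a fold of at least 1.5 and an unadjusted p under 0.05, with Benjamini-Hochberg values beside it. Array depth has no count, so that the number of arrays, 3 a group, limits the precision. The labels number B and S slices by animal, and residuals of same-numbered control slices, taken over genes, correlated at 0.30, 0.03 and 0.15. The spread was estimated over the pairs of all 6 animals of both genotypes, with 4 residual degrees of freedom and a prior of 22.8, so that p-values rest largely on the spread shared across genes.

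Genes named are the 14 higher and 14 lower with the smallest p among those past the filter with separated groups and 1 direction in all pairs, up to 4 members of each list by the largest moderated t, the main activity genes, the microRNA genes past the filter, the genes the study named, and 6 genes of the difference of responses. The members, the 62 lists and these rules were chosen with earlier results of these data known. Alternatives changed the pairing, the samples, the scaling, the offset, the filter on dim genes, the clusters, the variance prior, the array weights and the test, and left out each animal. Sequences are from RefSeq, GRCm38.p6.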

Additional observations from a re-analysis of the deposited data

Results flagged for a closer look

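Of the 113 genes past the filter both in control slices and in the difference of responses between genotypes, the 6 with the smallest unadjusted p of that difference are given. Gm5576 had an S minus B of 1.34 ± 0.28 in Ptpn11D61Y slices and -0.72 ± 0.28 in control slices, a difference of 2.07 ± 0.39 (limma, unadjusted p = 1.51e-05, adjusted p = 0.235). 1700091H14Rik had 0.84 ± 0.44 in Ptpn11D61Y slices and -1.38 ± 0.44 in control slices, a difference of 2.22. Ttc36 had 0.68 ± 0.30 in Ptpn11D61Y slices and -0.91 ± 0.30 in control slices, a difference of 1.59. Kcnh8, the potassium channel gene, had 0.47 ± 0.24 in Ptpn11D61Y slices and -0.75 ± 0.24 in control slices, a difference of 1.23. Hadhb, a subunit of the mitochondrial trifunctional protein of fatty acid oxidation, had -0.37 ± 0.31 in Ptpn11D61Y slices and 1.18 ± 0.31 in control slices, a difference of -1.56. Gm9442 had -0.53 ± 0.22 in Ptpn11D61Y slices and 0.73 ± 0.22 in control slices, a difference of -1.26. The adjusted p was 0.989 for 1700091H14Rik, Ttc36, Kcnh8, Hadhb and Gm9442. All 6 were picked for passing in control slices, whose arrays also enter the difference. Without animal 1 the S minus B of control slices was -0.79 for Kcnh8, -0.44 for Gm5576, -0.18 for Ttc36, -0.33 for 1700091H14Rik, 0.55 for Gm9442 and 0.41 for Hadhb.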

How the results depend on the processing

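The methods' test was run on the same 15633 genes, with the limit on the mean signal kept. The count of 1150 genes past the filter in control slices depended on the processing. It was 204 without the replicate block, 699 with the animal as a random replicate block, 554 with arrays not centred, 531 with the quantile normalization repeated, 379 with an offset of 16, 2456 over all clusters and 70 with the methods' test, and 86 to 4462 when 1 animal was left out. Genes higher numbered 115 without the replicate block, 546 with the random block, 133 not centred, 293 quantile normalized, 294 with the offset, 1616 over all clusters and 5 with the methods' test, and 48 to 3971 when 1 animal was left out. Genes lower numbered 89 without the replicate block, 421 not centred, 85 with the offset, 83 at a mean of at least 6, 516 with no filter on the mean, 840 over all clusters and 65 with the methods' test, and 38 to 534 when 1 animal was left out. The share of calls that were higher was 82.8%, against 24% not centred, 55.2% quantile normalized and 7.14% with the methods' test. The count past the adjusted p was 20 with the 6 control arrays only, 55 at a mean of at least 6 and 10835 with array weights, whose estimation stopped before it converged, and 0 to 151 when 1 animal was left out. The difference of responses passed for 60 genes without the replicate block, 116 not centred and 269 to 517 when 1 animal number was left out, most without replicate 2, and past the adjusted p for 27 genes without replicate 2 and 16 without replicate 3. The causes were not tested.

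Some genes turned sign. Arc was -0.10 not centred, -0.17 quantile normalized and -0.11 to 0.32 when 1 animal was left out, lowest without animal 3. Ptgs2 was -0.022 not centred, -0.10 quantile normalized, -0.11 with the methods' test and -0.17 to 0.52 when 1 animal was left out, lowest without animal 1. Homer1 was -0.045 quantile normalized. With array weights Fos was -0.13, Gadd45g -0.022, Grin3a -0.18, Ighm 0.028, Mir3080 -0.13 and Mir3091 0.78. With the methods' test Itgam was -0.059, Mir3080 -0.14 and Mir3091 0.12. When 1 animal was left out Mir3091 ranged over -1.98 to 0.30 and Olfr453 over -1.77 to 0.033, both highest without animal 1. Without animal 1 the medians of 14 of 60 lists turned sign, and 7 did with arrays not centred and 7 with the quantile normalization repeated. Of 95 named genes past the filter 23 passed without animal 1 and 62 after the repeated quantile normalization.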
